A study of Mus musculus with 3 samples.

Results

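Genes of the liver X receptor (LXR) pathway and of intracellular cholesterol transport were examined in a mouse T-lymphoma line, on 3 Affymetrix arrays with 1 array per kind of cell. The set was 10 genes chosen by name for their role, with earlier results of these data known. Every probe set whose only gene symbol was one of them was taken. The set comprised the receptor genes Nr1h2 and Nr1h3, the targets Abca1, Abcg1, Apoe and Mylip, and the sterol transfer and storage genes Npc1, Npc2, Gramd1b and Soat1. Of these, 8 genes had a named probe set, 15 probe sets in all, out of 45101 on the array and 18194 named genes. Nr1h2 and Soat1 had none among the probe sets named here and were not analysed. One array was made from Q84E cells, which are DKO cells carrying ATP11A with the Q84E mutation as a stable transgene. Another was made from wild-type ATP11A cells, in which the stable transgene of the DKO cells is unmutated human ATP11A. The last was made from parental WR19L cells, which carry no transgene. All 3 are forms of the WR19L line of BALB/c origin and were grown untreated in the same serum-containing medium. DKO cells are described as deficient in flippases, and the labels do not spell out which genes were removed. ATP11A is a P4-ATPase, an enzyme that uses ATP to turn certain phospholipids inward across the cell's outer membrane and is therefore called a flippase. Transgene-free DKO cells were not analysed here, so in any ratio over parental cells the knockout, the transgene and the derivation of the line cannot be told apart. The labels do not say whether a line was 1 clone, nor which promoter drove the transgene.

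LXRs are nuclear receptors that bind oxysterols and other sterols and act as heterodimers with retinoid X receptors. When cells hold excess cholesterol they switch on genes for its export and limit its uptake. In lymphocytes the beta form, encoded by Nr1h2, is the main one, and sterol export through ABCG1 is known to restrain proliferation. Cholesterol that enters by endocytosis leaves late endosomes through the NPC2 and NPC1 proteins. Proteins of the GRAMD1 family, also called Asters, then carry it from the plasma membrane to the endoplasmic reticulum. Their GRAM domain binds accessible cholesterol together with phosphatidylserine, a phospholipid that flippases keep in the inner leaflet.

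LXR heterodimers classically bind 2 AGGTCA half-sites in direct repeat with 4 bases between them, called DR4 and written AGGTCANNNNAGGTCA. Promoter windows of 250 bases before a RefSeq transcription start (build GRCm38.p6) were found for 7 of the 10 genes, 10 windows in all because Nr1h3 and Apoe have several starts. Abcg1, Gramd1b and Npc1 had no entry. With up to 3 mismatches over the 12 letters of the half-sites, on either strand, a DR4 match was present in 1 of these 10 windows, that of Abca1. The same search matched 18.5% of the 32851 windows of the genome, so such a match is common, and an exact match was present in 5 of them. The Abca1 window (chr4:53159896-53160145, minus strand) is shown because Abca1 is the model LXR target. Capitals mark the match at positions -67 to -52 before the start, which reads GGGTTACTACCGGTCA on the opposite strand with 3 mismatches.

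Abca1: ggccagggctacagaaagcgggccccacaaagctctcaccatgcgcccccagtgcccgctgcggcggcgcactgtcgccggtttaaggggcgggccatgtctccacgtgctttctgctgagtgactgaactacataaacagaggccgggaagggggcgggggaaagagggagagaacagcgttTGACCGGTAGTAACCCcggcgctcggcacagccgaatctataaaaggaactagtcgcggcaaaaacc

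The windows of Npc2 (chr12:84773113-84773362, minus strand) and Mylip (chr13:45389492-45389741, plus strand) are shown because these genes are among those with the clearest differences. Their capitals mark common promoter elements, searched on both strands. The GC box was searched as GGGCGG, and the Npc2 window held 3 of them while the Mylip window held 1. The CCAAT box was searched by the letters of its name, and it was present 2 times in the Npc2 window and 3 times in the Mylip window. The TATA box was searched as TATAAA, and of these windows only that of Mylip held one, at -32 to -27. None of the matches in these windows overlapped another. Over all windows the GC box letters were found in 32.7%, the CCAAT box in 33.8% and the TATA box in 12.4%. The Abca1 window also held 2 GC boxes, 1 TATA box at -29 to -24 and 1 E-box (CACGTG), a motif that was present in 6.02% of all windows. These matches are descriptions of the sequence, and the arrays did not measure binding.

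Npc2: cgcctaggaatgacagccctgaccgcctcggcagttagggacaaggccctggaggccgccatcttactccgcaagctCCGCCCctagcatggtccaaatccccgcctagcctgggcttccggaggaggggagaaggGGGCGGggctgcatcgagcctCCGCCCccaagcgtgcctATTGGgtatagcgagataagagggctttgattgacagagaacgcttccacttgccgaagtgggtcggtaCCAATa

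Mylip: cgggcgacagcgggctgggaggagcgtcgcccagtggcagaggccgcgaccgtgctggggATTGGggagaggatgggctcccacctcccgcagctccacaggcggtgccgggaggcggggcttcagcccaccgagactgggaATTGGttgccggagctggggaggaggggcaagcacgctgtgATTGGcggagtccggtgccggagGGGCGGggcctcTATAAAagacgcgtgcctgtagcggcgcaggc

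Values are linear array intensities, called signals, which the authors had scaled to the same mean on each array. A floor was set at the 50th percentile of all probe sets, which was a signal of 55.5 for Q84E, 50.5 for wild-type ATP11A and 50.3 for parental cells, and lower signals were treated as unmeasured. With 1 array per kind of cell there were no replicates, so differences carry no test. Technical error was estimated from genes with several probe sets, as the SD of the log2 ratio of a single probe set. Its size was 0.30 to 0.33 for signals between the 50th and 75th percentile, 0.18 to 0.19 between the 75th and 90th, and 0.10 to 0.11 above the 90th. It does not cover differences between cultures. The endogenous Atp11a probe set above the floor on every array had a signal of 244 in Q84E cells and 253 in wild-type ATP11A cells, against 478 in parental cells. T cell identity was checked with 7 named markers, of which 5 were above the floor on every array, with Cd3e and Cd5 below it. Their summed signal was 16338 in Q84E cells, 11746 in wild-type ATP11A cells and 17578 in parental cells, so the wild-type ATP11A array was the lowest. Of 10 macrophage and monocyte markers, a cell type rich in LXR target transcripts, 3 were above the floor in Q84E cells, 2 in wild-type ATP11A cells and 3 in parental cells. Their summed signal was 383 in Q84E cells, 412 in wild-type ATP11A cells and 326 in parental cells, and none reached the 75th percentile. Csf1r and Cd68 were above the floor on every array. Csf1r had a signal of 114 in Q84E cells, 158 in wild-type ATP11A cells and 99.8 in parental cells, and Cd68 had 63.6, 76.6 and 52.8. Lyz2 went the other way, with 55.9 in Q84E cells, 16.4 in wild-type ATP11A cells and 62.9 in parental cells. Its wild-type ATP11A value was under the floor. At the other end, Cd14 and C1qa stood under 10 on all 3 arrays. Between samples of cells, fewer cells of a type and less RNA per cell cannot be told apart.

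The clearest differences were in 4 genes. Apoe was lowest in Q84E cells, and the bright Npc2 probe sets were highest there. Mylip was higher in both DKO lines than in parental cells. Gramd1b was lowest in wild-type ATP11A cells. Abca1, the best known LXR target, was not measurable.

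The receptor gene Nr1h3 encodes LXR alpha, the form most prominent in liver and macrophages. Its single probe set had a signal of 68.3 in Q84E cells, 40.4 in wild-type ATP11A cells and 29.6 in parental cells. It was above the floor on the Q84E array alone, and there by a small margin. It was thus compared only through its Q84E value, and its Q84E ratios could only come out higher. Against the floor, with the authors' scaling, its level was at least 1.35-fold that in wild-type ATP11A cells. Over parental cells the bound was 1.36-fold. Of 1481 genes of similar level, 15.9% had a ratio of Q84E over wild-type ATP11A at least as high, so this bound lay well inside the common range. On the log2 scale the bound over wild-type ATP11A was 0.44, against an error of 0.30. It was 0.30 with quantile normalization and with each array scaled to a common median.

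Abca1 encodes the transporter that loads cholesterol onto apolipoprotein A-I and is the most widely used readout of LXR activity. Its 3 probe sets had signals of 38.2, 31.2 and 20.9 in Q84E cells, 16.5, 17.0 and 22.7 in wild-type ATP11A cells, and 21.9, 26.4 and 12.4 in parental cells. All 9 values were under the floor. The probe sets did not share an order of the 3 arrays, and no ratio is given.

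Abcg1 encodes the transporter that passes cholesterol to high-density lipoprotein. Its brighter probe set had a signal of 403 in Q84E cells, 350 in wild-type ATP11A cells and 380 in parental cells. Its log2 ratio was 0.20 for Q84E over wild-type ATP11A, -0.12 for wild-type ATP11A over parental and 0.086 for Q84E over parental. Each was smaller than the probe set error of 0.30 to 0.33 below the 75th percentile. The probe set lay at the edge of that range, at percentiles of 75.3 in Q84E, 74.3 in wild-type ATP11A and 75.2 in parental cells. The first ratio was above the error of 0.18 in the next range. The other Abcg1 probe set had a signal of 55.3 in Q84E cells, 3.87 in wild-type ATP11A cells and 4.43 in parental cells. That pattern looks steep, but all 3 values were under the floor, the first just below it, so it measures no difference.

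Apoe encodes apolipoprotein E, a carrier of lipids that accepts exported cholesterol. Its single probe set had a signal of 66.7 in Q84E cells, 125 in wild-type ATP11A cells and 106 in parental cells. The Q84E array was the lowest, and its value was close to the floor. The level was 1.87-fold lower in Q84E cells than in wild-type ATP11A cells, a log2 ratio of -0.91 against an error of 0.30. Of 1212 genes of similar level, 2.48% were at least as far down. Against parental cells the level was 1.58-fold lower in Q84E cells, at -0.66 on the log2 scale. Wild-type ATP11A cells were 0.24 above parental cells, less than the error of 0.33. The summed macrophage marker signal was also highest in wild-type ATP11A cells, at 412 against 383 in Q84E cells and 326 in parental cells. Unlike Apoe, it was lowest in parental cells, and no more than 3 of the 10 markers were above the floor on any array. The marker Lyz2 was lowest in wild-type ATP11A cells, unlike the sum. The part of the marker sum in the Apoe values was not tested. The ratio of Q84E over wild-type ATP11A was -0.58 when no floor was used and 50 was added to each signal.

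Mylip encodes IDOL, a ubiquitin ligase that sends the LDL receptor family for degradation and is induced by LXR. Its single probe set had a signal of 273 in Q84E cells and 282 in wild-type ATP11A cells, against 161 in parental cells. Both DKO lines lay above the parental line and close to each other. The level was 1.75-fold higher in wild-type ATP11A cells than in parental cells, a log2 ratio of 0.81 against an error of 0.33. Of 1182 genes of similar level, 2.03% had a ratio at least as high. In Q84E cells it was 1.69-fold higher than in parental cells, a log2 ratio of 0.76, and 7.45% of genes of similar level reached it. The ratio of Q84E over wild-type ATP11A was -0.050, far below the error. Both DKO ratios use the same parental array.

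**Figure D1:**
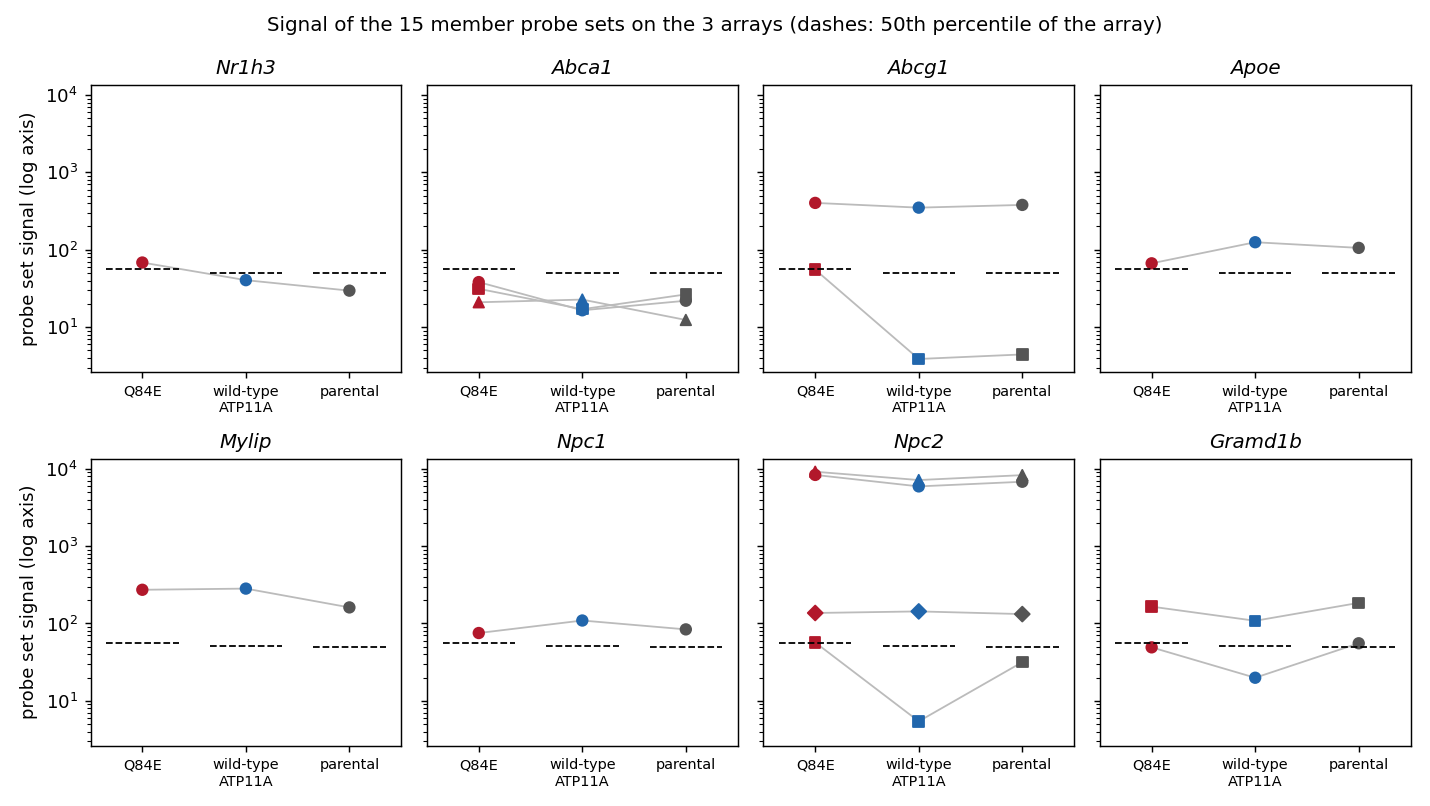
Signal of each of the 15 probe sets on a log axis, with 1 panel per gene, the Q84E, wild-type ATP11A and parental arrays from left to right, 1 marker shape per probe set within a panel, and dashes at the floor of each array. Mylip had signals of 273 and 282 in the DKO lines against 161 in parental cells, and the 3 Abca1 probe sets lay under the floor throughout.

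Npc1 encodes the membrane protein that takes cholesterol from NPC2 and moves it out of the late endosome. Its single probe set had a signal of 75.3 in Q84E cells, 109 in wild-type ATP11A cells and 83.9 in parental cells. The wild-type ATP11A array was the highest. The log2 ratio was -0.54 for Q84E over wild-type ATP11A, against an error of 0.30, and 10.4% of 1275 genes of similar level were at least as low. It was 0.38 for wild-type ATP11A over parental and -0.16 for Q84E over parental, against errors of 0.33.

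Npc2 encodes the soluble sterol-binding protein of the late endosome lumen. The brightest of its 4 probe sets had a signal of 9156 in Q84E cells and 7147 in wild-type ATP11A cells, against 8275 in parental cells. The second brightest, designed from the same transcript record, had a signal of 8328 in Q84E cells and 5917 in wild-type ATP11A cells, against 6796 in parental cells. On both, the Q84E array was the highest and the wild-type ATP11A array the lowest. The level in Q84E cells was 1.28-fold that in wild-type ATP11A cells by the brightest and 1.41-fold by the second, log2 ratios of 0.36 and 0.49 against an error of 0.10 in this range of signal. Of 533 genes of similar level, 1.13% had a ratio at least as high as the smaller of these values. For wild-type ATP11A over parental both probe sets were lower, at -0.21 and -0.20, and 2.44% of genes of similar level were at least as low. For Q84E over parental they gave 0.15 and 0.29.

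The remaining Npc2 probe sets were dimmer and differed from these. The brighter of the 2 had a signal of 137 in Q84E cells, 143 in wild-type ATP11A cells and 132 in parental cells, with a log2 ratio of -0.068 for Q84E over wild-type ATP11A. The dimmest had a signal of 56.8 in Q84E cells, 5.43 in wild-type ATP11A cells and 31.6 in parental cells, and only the first of these was above the floor. The order of the arrays for the bright Npc2 probe sets was that of the summed T cell markers in having wild-type ATP11A cells lowest, and the part of that in the Npc2 result was not tested. With each array scaled to a common median, the log2 ratio of Npc2 for Q84E over wild-type ATP11A was 0.22, because that scaling moved all genes by -0.14. Relative to the median of all genes it was 0.31 under both scalings.

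Gramd1b encodes Aster-B, a protein of the endoplasmic reticulum that collects plasma membrane cholesterol. Its brighter probe set had a signal of 165 in Q84E cells, 108 in wild-type ATP11A cells and 185 in parental cells. The wild-type ATP11A array was the lowest. The level was 1.52-fold higher in Q84E cells than in wild-type ATP11A cells, a log2 ratio of 0.61 against an error of 0.30, and 13.7% of 1053 genes of similar level reached it. It was 1.71-fold lower in wild-type ATP11A cells than in parental cells, a log2 ratio of -0.77, and 4.18% of those genes were at least as low. Q84E cells and parental cells differed by -0.16, less than the error. The dimmer Gramd1b probe set had signals of 49.1 in Q84E cells, 19.9 in wild-type ATP11A cells and 55.5 in parental cells. Only the parental value was above the floor, and the wild-type ATP11A value was again the lowest. The summed T cell markers were lowest in wild-type ATP11A cells too, and their part in the Gramd1b values was not tested. The ratios of Q84E over wild-type ATP11A and of wild-type ATP11A over parental share the wild-type ATP11A array, as they do for Npc1 and Npc2.

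**Figure D2:**
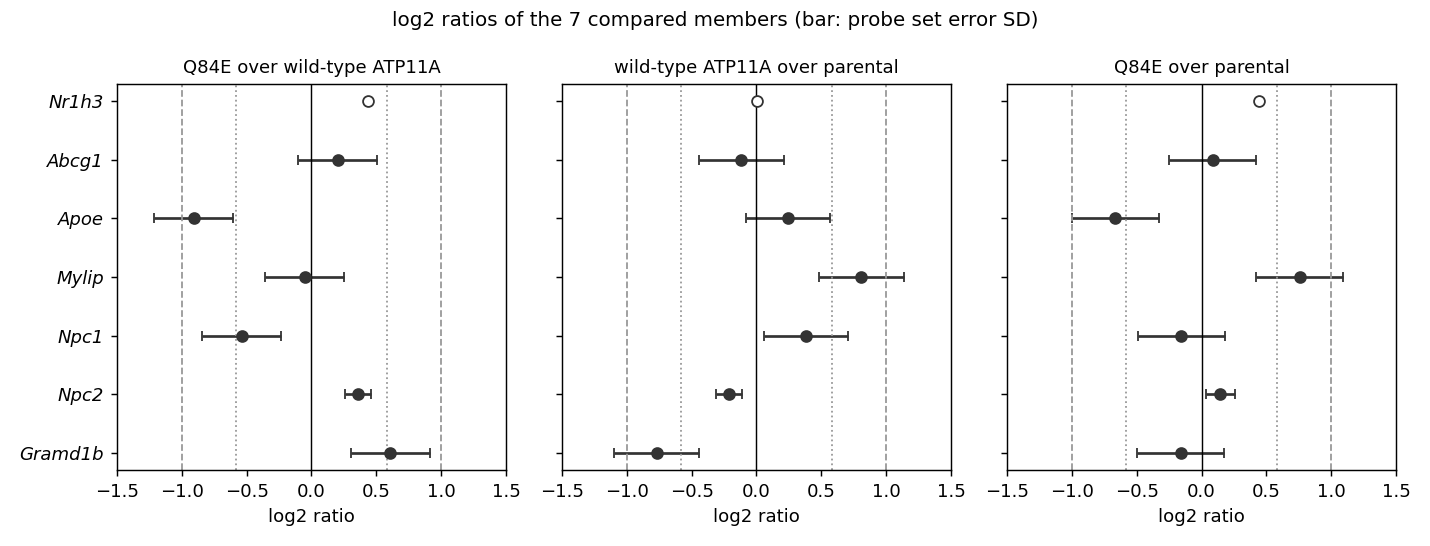
The log2 ratio of each compared gene in Q84E over wild-type ATP11A, wild-type ATP11A over parental and Q84E over parental cells, with bars of 1 probe set error SD, dotted lines at 1.5-fold and dashed lines at 2-fold. Open circles are Nr1h3, whose values rest on the floor. No point lies past 2-fold, and Apoe at -0.91 and Mylip at 0.81 lie nearest to it.

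Counted by size, 7 of the 10 genes could be compared, since they reached the floor on at least 1 array. For Q84E over wild-type ATP11A, 0 of 7 were at least 2-fold higher and 0 were at least 2-fold lower, where 1.03% and 0.319% of the 11596 compared genes were. At the limit of 1.5-fold, Gramd1b was higher and Apoe was lower, against a background of 5.78% higher and 1.97% lower. The Gramd1b call was lost with other scalings, at 0.46 with quantile normalization and 0.47 with a common median. Apoe kept its call and was at -1.05 and -1.04 under the same settings, past 2-fold. For wild-type ATP11A over parental, 0 genes were past 2-fold in either direction, against 0.561% higher and 0.888% lower. At 1.5-fold Mylip was higher and Gramd1b was lower, against 3.51% and 3.56%. For Q84E over parental, 0 genes were past 2-fold, against 1.63% higher and 0.793% lower, and at 1.5-fold Mylip was higher and Apoe was lower, against 7.36% and 2.94%. The split of calls over all genes depended on scaling. At 2-fold, Q84E over wild-type ATP11A had 119 genes higher and 37 lower as scaled by the authors, 68 and 64 with quantile normalization, and 65 and 66 with a common median. Q84E over parental had 189 higher and 92 lower as scaled by the authors, 119 and 118 with quantile normalization, and 111 and 123 with a common median. With 7 genes, 1 gene in a direction is too few to be read as a share.

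The genes did not share a direction. Over the 6 genes above the floor on all 3 arrays, 3 were above 0 and 3 below 0 in each of the 3 comparisons. Their median log2 ratio was 0.077 for Q84E over wild-type ATP11A, 0.063 for wild-type ATP11A over parental and -0.035 for Q84E over parental. Over the 9607 genes above the floor on all arrays the medians were 0.028, 0.010 and 0.046. With Nr1h3 at its floor values the medians of the 7 genes were 0.20, 0.0057 and 0.086, and those of the 11596 compared genes were 0.046, 0.0057 and 0.068. The value of 0.0057 is only the difference between 2 floors.

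**Figure D3:**
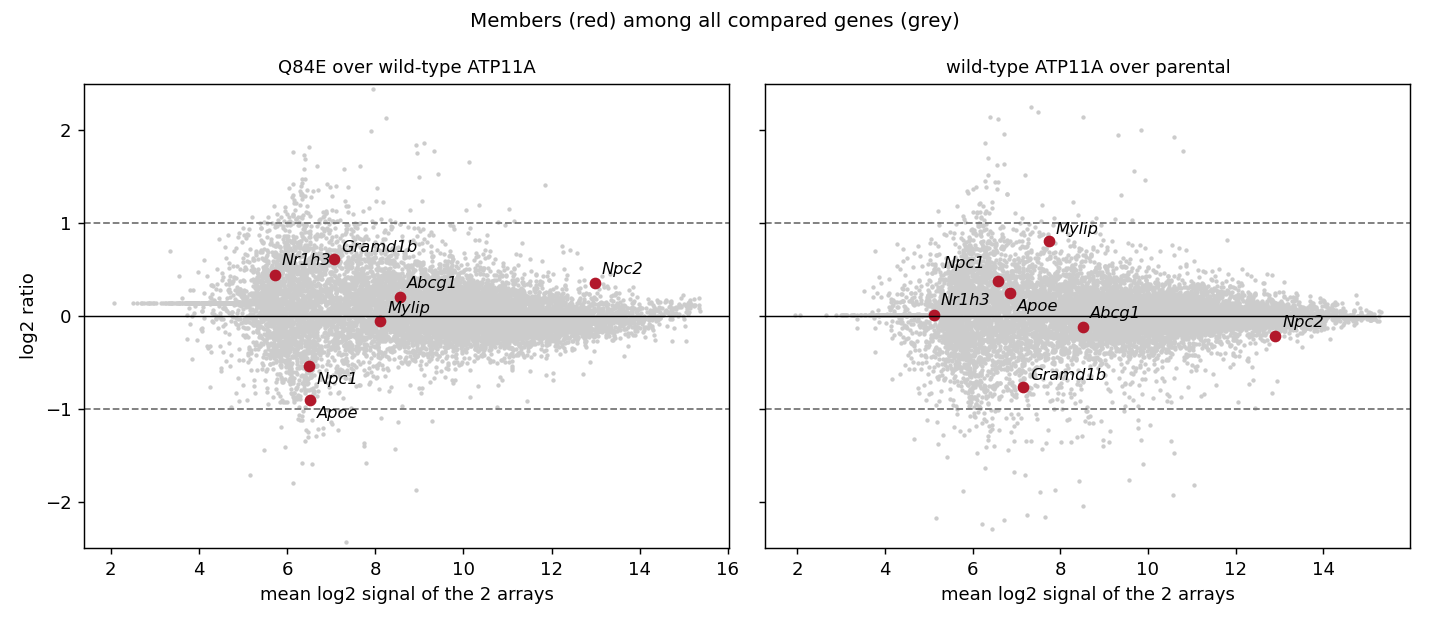
The log2 ratio against the mean log2 signal of the 2 arrays for all 11596 compared genes (grey) and the 7 genes of the set (red), for Q84E over wild-type ATP11A and wild-type ATP11A over parental. Dashed lines mark 2-fold, and 2 and 6 genes lie outside the vertical range. Npc2 stands at the edge of the narrow spread of bright genes at 0.36, while Gramd1b at 0.61 lies within the wider spread of dim ones.

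Other genes of the pathway were read from 7 lists with 76 symbols in total, also chosen with earlier results of these data known. Named probe sets existed for 68 of them and 51 could be compared. For Q84E over wild-type ATP11A none of the 51 was past 2-fold. At 1.5-fold 2 were higher and 0 lower, no larger a share than the background of 5.78% and 1.97%. These were Abcg4, a sterol transporter related to ABCG1, at a log2 ratio of 0.93, and Ch25h, which makes the LXR ligand 25-hydroxycholesterol, at a bound of 0.71. Both were named after their values were seen. Abcg4 had a signal of 227 in Q84E cells, 119 in wild-type ATP11A cells and 180 in parental cells, and its other probe set gave 0.32. Ch25h had a signal of 82.7 in Q84E cells and was under the floor on the other arrays, so it was compared only through its Q84E value.

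Among other LXR target genes, 8 of 16 could be compared and their median log2 ratio was 0.20 for Q84E over wild-type ATP11A, with 7 above 0 and none past 1.5-fold, where 58.1% of all compared genes were above 0. With a common median the list median was 0.058, and 6 were above 0, where 33.2% of all compared genes were. With quantile normalization it was 0.18, and 6 were above 0, where 47.9% of all genes were. Srebf1 encodes the LXR-induced regulator of fatty acid synthesis, and its signal was 2981 in Q84E cells, 2254 in wild-type ATP11A cells and 2126 in parental cells. Its log2 ratio was 0.40 for Q84E over wild-type ATP11A, above the probe set error in its range of signal, and 0.084 for wild-type ATP11A over parental. Lpcat3, a phospholipid-remodelling enzyme induced by LXR, was at 0.20. The targets Lpl, Mertk, Cd5l, Smpdl3a, Apoc2, Abcg5 and Cyp7a1 were under the floor on all arrays. Apoc1 and Pltp, both named after their values were seen, were above it on every array. Apoc1 lay close to it, with a signal of 72.0 in Q84E cells, 59.0 in wild-type ATP11A cells and 70.6 in parental cells. Pltp, a phospholipid transfer protein, had a log2 ratio of -0.77 for wild-type ATP11A over parental and -0.67 for Q84E over parental. Its other probe set gave -1.19 and -0.49. For Q84E over wild-type ATP11A the 2 Pltp probe sets ranged from 0.099 to 0.70.

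For 7 LXR partners and cofactors the median was 0.097 on the log2 scale for Q84E over wild-type ATP11A. It was -0.040 with a common median and 0.32 with all probe sets of a gene averaged. The median of all compared genes was 0.046, -0.091 and 0.050 in the same settings. The coactivator gene Ncoa3 was at 0.50 and the corepressor subunit gene Tbl1xr1 at 0.31, but the 6 Tbl1xr1 probe sets ranged from -0.10 to 0.48. Rxra, a receptor that pairs with LXR, had a signal of 375 in Q84E cells, 406 in wild-type ATP11A cells and 321 in parental cells, a narrow range, but for wild-type ATP11A over parental its 3 probe sets ranged from -0.81 to 0.34 on the log2 scale. The sterol transfer and late endosome list was measured in full, with 19 of 19 genes compared and a median of 0.11 for Q84E over wild-type ATP11A. Of these 14 were above 0, a share to set beside the 58.1% of all compared genes. With a common median the list median was -0.025 with 8 above 0. In that setting 33.2% of all compared genes were above 0 and their median was -0.091. With quantile normalization the list median was 0.053 with 11 above 0, where 47.9% of all genes were. Lipa, the lysosomal acid lipase that frees cholesterol from its esters, was at 0.55, but its 3 probe sets ranged from -0.44 to 0.55. Osbpl2, an oxysterol-binding protein relative, was at 0.40, and Scarb2, a lysosomal membrane protein, at 0.36.

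**Figure D4:**
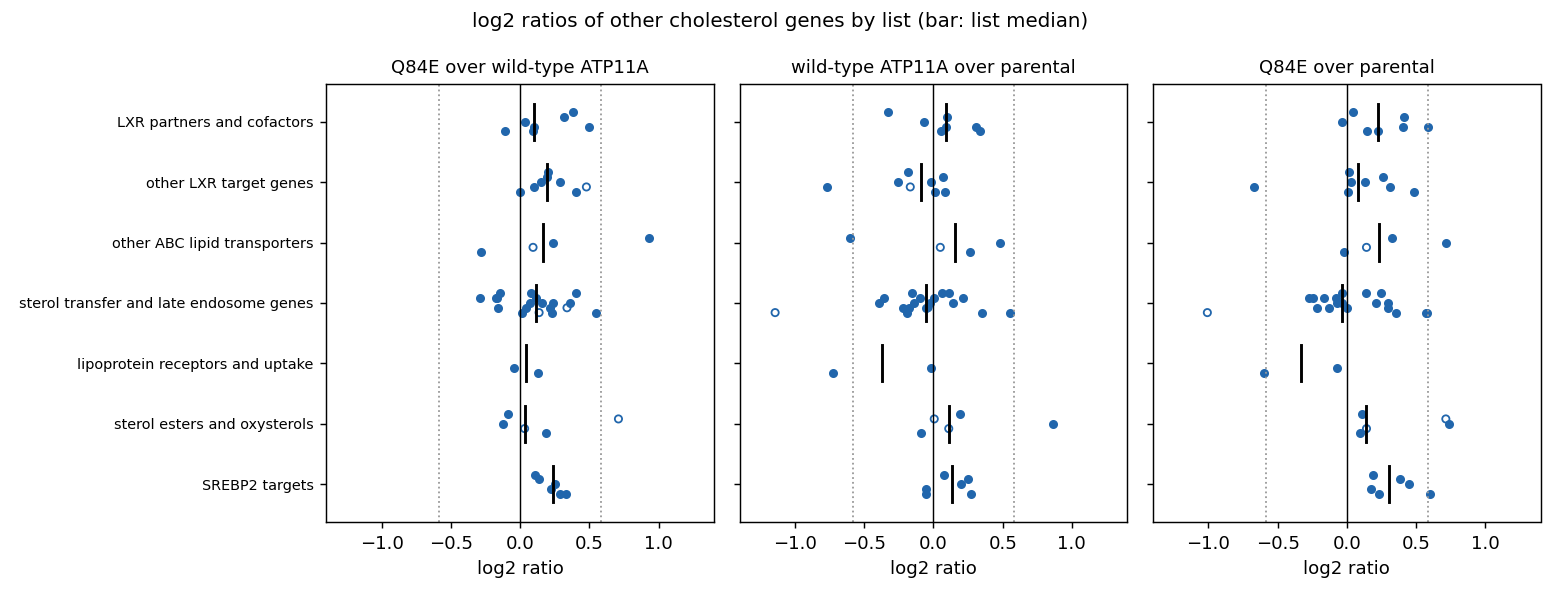
The log2 ratio of each of 51 compared genes in 7 lists for Q84E over wild-type ATP11A, wild-type ATP11A over parental and Q84E over parental cells. Filled circles were measured on both arrays, open circles rest on the floor on at least 1 of them, black bars are list medians and dotted lines mark 1.5-fold. With the authors' scaling the 6 SREBP2 pathway genes lie to the right of 0 in the first and last panel, with medians of 0.24 and 0.31, while with a common median 4 of 6 would do so in the first.

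The 6 measured genes of the SREBP2 pathway, which raises cholesterol synthesis and uptake when sterols are scarce, had a median of 0.24 for Q84E over wild-type ATP11A, with all 6 above 0, where 58.1% of all compared genes were. With a common median the list median was 0.10, with 4 of 6 above 0, where 33.2% of all genes were. With quantile normalization it was 0.25, with all 6 above 0, where 47.9% of all genes were. These counts use the brightest probe set of each gene. Srebf2 was at 0.33 and Idi1, an enzyme of isoprenoid synthesis, at 0.29. The 2 Idi1 probe sets ranged from -0.15 to 0.29, so they did not share a direction. Over parental cells the medians were 0.31 for Q84E and 0.14 for wild-type ATP11A, and Srebf2 was at 0.60 and 0.27. None of the 6 was past 1.5-fold in Q84E over wild-type ATP11A. The median of all compared genes was 0.046 in that comparison and -0.091 with a common median.

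In the ratios over parental cells a single pathway gene of 51 was past 2-fold, lower in both DKO lines, where 0.793% of all compared genes were lower for Q84E and 0.888% for wild-type ATP11A. At 1.5-fold, 5 pathway genes were higher and 3 lower for Q84E, against 7.36% and 2.94% of all genes. For wild-type ATP11A 1 was higher and 4 were lower, against 3.51% and 3.56%. Osbpl5, an oxysterol-binding protein relative that works at contacts of the endoplasmic reticulum and plasma membrane, was under the floor at 18.4 in Q84E cells and 11.8 in wild-type ATP11A cells, against 112 in parental cells. Compared only through its parental value, it was thus at least 2.01-fold lower in Q84E cells and at least 2.21-fold lower in wild-type ATP11A cells. Gramd1a, the Aster-A gene, had a signal of 575 in Q84E cells and 569 in wild-type ATP11A cells, against 387 in parental cells. Its log2 ratio was 0.57 for Q84E and 0.55 for wild-type ATP11A over parental, where Gramd1b had -0.16 and -0.77. Gramd1c, of the same family and named after its values were seen, had 63.9 in Q84E, 31.1 in wild-type ATP11A and 51.9 in parental cells. Its wild-type ATP11A value was under the floor and, like that of Gramd1b, the lowest. Stard4, a soluble sterol carrier, was at 0.58 for Q84E over parental. Lrp8, a lipoprotein receptor that IDOL targets, had a signal of 655 in Q84E cells and 599 in wild-type ATP11A cells, against 992 in parental cells. On this brightest probe set the log2 ratio over parental was -0.60 for Q84E and -0.73 for wild-type ATP11A. The 3 Lrp8 probe sets ranged from -0.60 to 0.037 for Q84E and from -0.73 to -0.062 for wild-type ATP11A, so they did not share a direction for Q84E.

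The genes nearest in profile to Apoe and Mylip, which had the widest range of level among the genes above the floor on all arrays, were looked for among 6371 genes above the 75th percentile on all 3 arrays. Likeness was the distance between the 3 log2 levels after subtracting their mean. Ube2v2, Coa7 and Wdr82 were nearest to Apoe, at distances of 0.082, 0.12 and 0.19. Tnfaip8l1, Tbx5 and Nr4a1 were nearest to Mylip, at 0.011, 0.016 and 0.044. With 3 arrays a profile is only 3 values.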

How the data were processed

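Total RNA (250 ng) from 3 kinds of cells was labelled with a 3' in vitro transcription kit, per the labels' protocols. The authors deposited 1 linear intensity per probe set, called its signal. The submitters' processing notes name MAS5, whose version is not given in the sources used here. Their trimmed mean was 500.0 on each array, so the authors' common scaling was kept. Groups came from the genotype or title in the labels. Probe sets were named from the platform annotation, with 34958 having 1 symbol, 932 several and 9211 none listed. Deposited signals were taken to log2, each gene was represented by its probe set with the highest mean, and genes at or above the 50th percentile on at least 1 array were compared. Lower levels were set to that floor. Genes were counted at 2-fold and 1.5-fold. Genes of similar level are those within 0.5 on the log2 scale. The probe set error used the brightest pair of probe sets of a gene within 4-fold of each other. The counting was tested on simulated data. All members, pathway genes past 2-fold, and the 2 largest of each list above the 75th percentile were named. Members and lists were chosen with earlier results of these data known. Alternatives covered scaling, floor, filter and probe set choice. Python 3.11.15, pandas 2.3.3 and numpy 2.4.6 were used.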

Additional observations from a re-analysis of the deposited data

How the results depend on the processing

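No paired analysis was possible because each group had 1 array, and no replicate could be left out. Of 240 counts and medians recomputed under 8 alternatives, 162 stayed within 1.5 times or the probe set error and 78 moved. All counts below are given as higher and lower at 2-fold, then at 1.5-fold, and the cause was not tested. They are out of 11596 genes, or 6892 with the filter at the 75th percentile and 10380 with averaged probe sets. Q84E over wild-type ATP11A had 68, 64, 422 and 376 genes with quantile normalization, 65, 66, 374 and 422 with a common median, 454, 316, 1099 and 623 with the floor at the 25th percentile, and 25, 9, 139 and 41 with the filter at the 75th. Wild-type ATP11A over parental had 380, 408, 866 and 836 with that lower floor and 17, 41, 81 and 111 with that filter, where fewer genes were compared. Q84E over parental had 119 higher at 2-fold and 556 and 526 at 1.5-fold with quantile normalization, 111, 489 and 613 with a common median, 552, 378, 1308 and 741 with the lower floor, and 53, 45, 243 and 125 with the filter. With all probe sets of a gene averaged, 73 genes were 2-fold lower for Q84E over wild-type ATP11A and 102 higher for wild-type ATP11A over parental.

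For the 10 genes, Apoe passed 2-fold for Q84E over wild-type ATP11A with quantile normalization and with a common median, so that 1 gene was lower at 2-fold, 2 at 1.5-fold and 0 higher. With the lower floor 2 were higher at 1.5-fold in both Q84E comparisons, 1 of them past 2-fold over parental. Of all 11596 genes, 1099 were 1.5-fold higher over wild-type ATP11A and 1308 over parental, and 552 were 2-fold higher over parental. With 50 added to each signal and no floor, Gramd1b and Apoe no longer passed 1.5-fold in any comparison, so 0 genes were past it for Q84E over wild-type ATP11A and 0 were lower in the others, while Mylip still passed over parental. With the filter at the 75th percentile 2 genes remained comparable and 0 passed. With averaged probe sets, 2 genes were 2-fold and 3 were 1.5-fold higher for Q84E over wild-type ATP11A, where 127 and 672 of all 10380 genes were. For wild-type ATP11A over parental, 1 was 2-fold and 2 were 1.5-fold lower, where 129 and 455 of all genes were. For Q84E over parental, 1 and 2 were higher, where 199 and 837 of all genes were. Probe sets under the floor enter that average, and it gave Abcg1 1.56 for Q84E over wild-type ATP11A. Without probe sets whose names end in _x_at, _s_at or _a_at, Apoe and Nr1h3 had no value, since their single probe sets end in _a_at. In that setting 0 genes were lower at 1.5-fold in either Q84E comparison. The genes' median was 0.067 with a common median and 0.44 with averaged probe sets for Q84E over wild-type ATP11A. It was 0.24 with the lower floor and 0.17 with no floor for wild-type ATP11A over parental, and -0.056 and 0.33 with a common median and with averaged probe sets for Q84E over parental. Pathway genes past 2-fold numbered 2 in both Q84E comparisons with the lower floor and 0 over parental with the filter. They numbered 0 for Q84E over parental without probe sets ending in _x_at, _s_at or _a_at. Over 6 or 7 settings, the log2 ratio of Mylip ranged from 0.65 to 0.81 for wild-type ATP11A over parental. That of Apoe ranged from -1.05 to -0.58, that of Gramd1b from 0.44 to 0.83 and that of Npc2 from 0.22 to 1.04 for Q84E over wild-type ATP11A.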

Other observations

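Several dim probe sets of cholesterol genes had their highest signal on the Q84E array, near or somewhat above its floor of 55.5. They were picked after their values were seen and were not counted against all dim probe sets. Others were highest elsewhere, such as Plin2 with 7.38 in Q84E cells, 5.96 in wild-type ATP11A cells and 44.8 in parental cells. The dimmer Gramd1b probe set was highest in parental cells, and Abca5 in wild-type ATP11A cells at 52.1. The second Abcg1 probe set gave 55.3 in Q84E cells, against 3.87 in wild-type ATP11A cells, and the dimmest Npc2 probe set gave 56.8 against 5.43. Cyp46a1, which makes the LXR ligand 24S-hydroxycholesterol in neurons, gave 55.3 in Q84E cells, 9.40 in wild-type ATP11A cells and 44.3 in parental cells. Nr1h3 gave 68.3 and Ch25h 82.7 in Q84E cells, against 40.4 and 26.1 in wild-type ATP11A cells. The Q84E array also had the highest 50th percentile of all probe sets, 55.5 against 50.5 in wild-type ATP11A and 50.3 in parental cells. Apoe at 66.7 and Npc1 at 75.3 lay in the same range and were lowest on the Q84E array.

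Lipe, which encodes hormone-sensitive lipase, an enzyme that also cleaves cholesteryl esters, had a signal of 89.8 in Q84E cells and 97.7 in wild-type ATP11A cells, against 53.8 in parental cells. Its log2 ratio over parental was 0.74 in Q84E cells and 0.86 in wild-type ATP11A cells, and its other probe set was under the floor on all 3 arrays. Both genes of this paragraph were named after their values were seen. Abca7, a transporter of phospholipids and sterols, had signals of 275, 234 and 168 in Q84E, wild-type ATP11A and parental cells, from 1 probe set.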
